A study of Homo sapiens with 20 samples.

Results

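The genes described here are the numbered zinc finger genes of human chromosome 19: all RefSeq protein-coding genes of that chromosome (GRCh38.p14, the assembly that hg38 names) whose symbol is ZNF followed by a number and at most 1 letter. There are 246 of them among 20033 protein-coding genes, and 1205 other protein-coding genes lie on the same chromosome. Open chromatin had been profiled by ATAC-seq, which uses a transposase to tag accessible DNA with sequencing adapters, in RKO and LOVO, a pair of established human colon adenocarcinoma lines. In each line the groups were shMETTL3 cells, which carry a short hairpin RNA against the RNA m6A methyltransferase gene METTL3, untreated (2 samples) or with olaparib (2 samples), and shControl cells, which carry a control hairpin, with olaparib (2 samples) or untreated (4 samples, of which 2 are labelled as a second batch). Olaparib inhibits poly(ADP-ribose) polymerases, enzymes of DNA repair. All cells thus carried a hairpin, and nothing in the labels says whether samples of a group came from separate cultures. The series concerns LINE1 RNA methylation, chromatin accessibility and blocked DNA repair.

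Most proteins of this family bind DNA through tandem C2H2 zinc fingers, and many also carry a KRAB domain that recruits the corepressor TRIM28 (KAP1). TRIM28 in turn brings the H3K9 methyltransferase SETDB1 and HP1 proteins, and the known targets of such complexes include transposable elements, LINE1 among them. The genes arose largely by tandem duplication and stand in clusters on chromosome 19, and the clusters are themselves known to carry H3K9me3 over the 3′ ends of the genes.

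The deposited data are 10 lists of accessible intervals, 5 per line, and no list belongs to a single sample. Untreated shControl has 2 lists per line: 1 holds intervals only (called merged here, as its name says) and is matched by the untreated shMETTL3 list, and the other carries a score per interval (called scored) and is matched by both olaparib lists. A gene is called open in a list when an interval of that list lies within 1 kb of either end of the gene. With 1 list per group there was no replicate value and no test, so that the counts describe these lists. Intervals in brackets after a share are 95% Clopper-Pearson (exact binomial) intervals, which reflect counting error alone. The sequencing depth behind a list is unknown, and a missing interval does not show closed chromatin. A missing interval may also stand for fewer cells with the site open or for a less open site in each cell, and these cannot be told apart. Lists differed in length, from 6916 intervals (untreated shMETTL3) to 35455 (shMETTL3 with olaparib) in RKO and from 16417 to 51462 in LOVO, with the same groups at either end. As a check of the labelled tissue, 4 of 6 epithelial markers were open in 4 of the 5 RKO lists and 1 in untreated shMETTL3, and 3 to 6 were open in the LOVO lists. CDH1 and VIL1 were open in no RKO list. Of 5 leukocyte markers 0 to 1 were open in RKO and 0 to 3 in LOVO, with SPI1 open in 4 lists of each line, CD3E in 2 LOVO lists and PTPRC in no list, and of 5 fibroblast markers 0 to 2 in RKO and 0 to 1 in LOVO, with COL1A1 open in 3 RKO lists and 1 LOVO list and DCN, PDGFRB and THY1 in no list. The part of such markers in the results was not tested.

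Promoters of 6 of the zinc finger genes are printed as examples of genes that were open in different lists. So few, picked for a shared motif, cannot show what separates such genes. Each is RefSeq sequence (GRCh38.p14) from 250 bases before to 50 bases after the annotated start, 5′ to 3′ on the strand of the gene. Capitals mark CCGGAAG or its reverse complement CTTCCGG, letters known as a core of sites bound by ETS factors. ZNF557 (chr19:7069453-7069752, plus strand) was open in all 10 lists. ZNF486 (chr19:20166964-20167263, plus strand), ZNF737 (chr19:20565732-20566031, minus strand) and ZNF284 (chr19:44071909-44072208, plus strand) were open in all 5 RKO lists and in no LOVO list. ZNF586 (chr19:57769426-57769725, plus strand) was open in all 5 LOVO lists and in no RKO list, and ZNF177 (chr19:9362763-9363062, plus strand) in none of the 10.
ZNF557: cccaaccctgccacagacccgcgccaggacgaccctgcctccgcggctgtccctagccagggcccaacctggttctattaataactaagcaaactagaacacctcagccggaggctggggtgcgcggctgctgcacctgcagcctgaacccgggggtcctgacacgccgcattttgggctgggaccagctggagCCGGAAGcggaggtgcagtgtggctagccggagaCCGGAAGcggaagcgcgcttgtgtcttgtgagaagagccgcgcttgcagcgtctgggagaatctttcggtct
ZNF486: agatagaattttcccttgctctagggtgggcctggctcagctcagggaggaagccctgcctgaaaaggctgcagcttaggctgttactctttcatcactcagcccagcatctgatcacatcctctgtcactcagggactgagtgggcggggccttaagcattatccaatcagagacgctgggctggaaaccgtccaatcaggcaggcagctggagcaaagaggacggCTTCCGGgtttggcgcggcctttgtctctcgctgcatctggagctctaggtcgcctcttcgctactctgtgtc
ZNF737: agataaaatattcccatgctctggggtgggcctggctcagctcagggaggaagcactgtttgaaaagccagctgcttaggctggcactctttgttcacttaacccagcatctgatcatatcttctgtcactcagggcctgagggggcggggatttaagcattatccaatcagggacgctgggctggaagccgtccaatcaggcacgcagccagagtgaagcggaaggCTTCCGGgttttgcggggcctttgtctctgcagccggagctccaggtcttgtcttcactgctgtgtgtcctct
ZNF284: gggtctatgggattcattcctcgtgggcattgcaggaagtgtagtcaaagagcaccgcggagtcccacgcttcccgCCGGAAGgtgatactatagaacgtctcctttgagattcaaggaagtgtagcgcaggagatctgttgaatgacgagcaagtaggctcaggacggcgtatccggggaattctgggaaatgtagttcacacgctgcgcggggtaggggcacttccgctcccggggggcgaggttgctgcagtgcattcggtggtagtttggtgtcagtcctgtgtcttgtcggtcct
ZNF586: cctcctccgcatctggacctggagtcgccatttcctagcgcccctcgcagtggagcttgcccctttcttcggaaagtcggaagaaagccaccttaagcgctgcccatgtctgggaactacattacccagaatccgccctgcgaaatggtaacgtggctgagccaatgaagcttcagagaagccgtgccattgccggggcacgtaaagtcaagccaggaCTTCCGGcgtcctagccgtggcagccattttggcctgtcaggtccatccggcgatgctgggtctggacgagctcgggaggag
ZNF177: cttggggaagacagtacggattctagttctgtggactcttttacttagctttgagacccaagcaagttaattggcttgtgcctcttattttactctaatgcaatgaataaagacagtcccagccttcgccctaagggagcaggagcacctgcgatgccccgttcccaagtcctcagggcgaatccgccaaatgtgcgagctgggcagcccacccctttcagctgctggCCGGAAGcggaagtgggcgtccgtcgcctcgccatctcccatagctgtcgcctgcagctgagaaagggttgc

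All 6 were chosen because they hold the marked letters, to show that promoters with this motif occur in each of these states. ZNF486 and ZNF737 shared 254 of 304 aligned columns (83.6%), while the other pairs among the 6 shared 49.9 to 53.7%. CpG content varied across the same genes: 22 CpG in ZNF557, 10 in ZNF486, 8 in ZNF737, 20 in ZNF284, 20 in ZNF586 and 14 in ZNF177, at observed over expected ratios of 0.716, 0.415, 0.350, 0.883, 0.750 and 0.610.

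The zinc finger genes were open more often than protein-coding genes in general in every RKO list and less often in every LOVO list. In RKO, 81 were open in untreated shMETTL3 (32.9%, 27.1 to 39.2), against 25.3% of all genes. In the merged untreated shControl list 157 were open (63.8%, 57.5 to 69.8), against 54.9% of all genes. With olaparib, 164 were open in shMETTL3 (66.7%, 60.4 to 72.5; all genes 55.4%) and 152 in shControl (61.8%, 55.4 to 67.9; all genes 52.3%), and the scored untreated shControl list had 139 (56.5%, 50.1 to 62.8; all genes 47.6%). RKO thus had an interval at most of the family in 4 of its 5 lists. In LOVO, 63 were open in untreated shMETTL3 (25.6%, 20.3 to 31.5), against 35.8% of all genes, and 101 in the merged untreated shControl list (41.1%, 34.8 to 47.5), against 51.5%. With olaparib, 111 were open in shMETTL3 (45.1%, 38.8 to 51.6; all genes 58.4%) and 105 in shControl (42.7%, 36.4 to 49.1; all genes 53.2%), and the scored untreated shControl list had 106 (43.1%, 36.8 to 49.5; all genes 55.8%). The size of the LOVO gap depended on the gene-end rule. Counted at the RefSeq start alone (216 members), members stood below all genes in every LOVO list too, but by less. In merged untreated shControl they stood at 49.5% by start, against 52.6% of all genes and 44.5% of other chromosome 19 genes. By start the members lay above other chromosome 19 genes in every LOVO list, and by gene end below them. The LOVO list was the longer one for every group. In the merged untreated shControl pair the shorter RKO list had the larger share of all genes open (54.9 against 51.5%). The part of list length or depth in the difference between the lines was not tested.

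**Figure D1:**
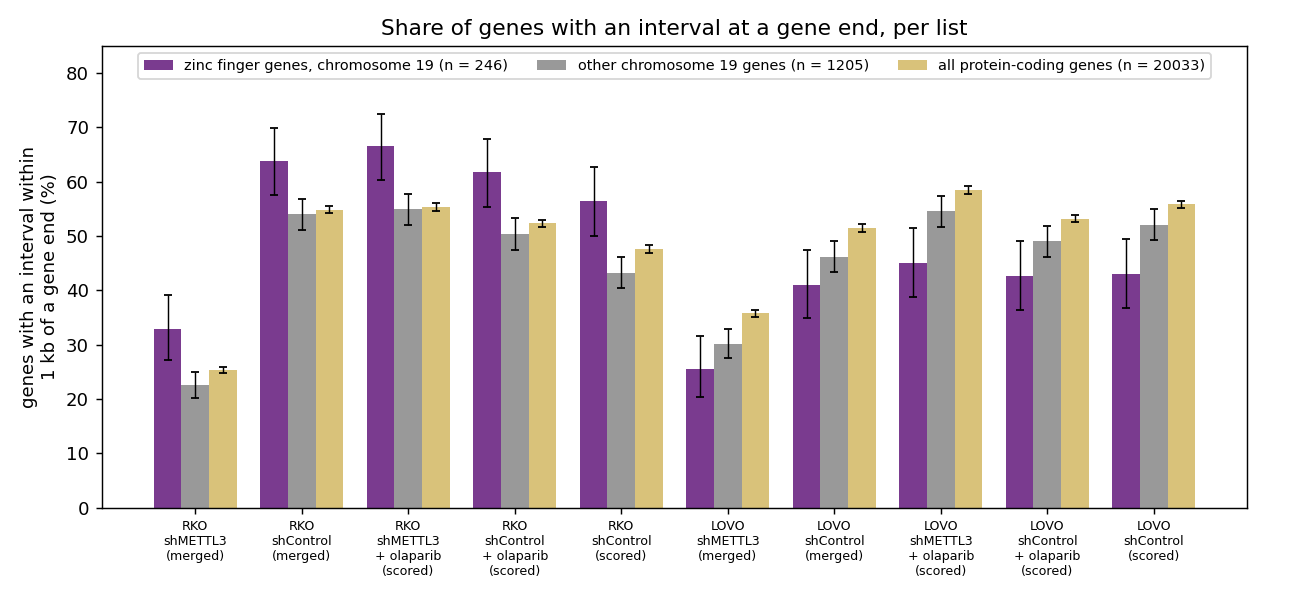
Share of genes (%) with an interval within 1 kb of a gene end, for the 246 zinc finger genes, the 1205 other chromosome 19 genes and all 20033 protein-coding genes in each list; error bars are 95% exact binomial intervals. The zinc finger bar stands above the bar for all genes in the 5 RKO lists and below it in the 5 LOVO lists.

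Other genes of the chromosome and zinc finger genes elsewhere stood on the same side of all genes in both lines. Other chromosome 19 genes were open at 22.5 to 54.9% in the RKO lists and at 30.1 to 54.5% in the LOVO lists, below the share of all genes in each of the 10 lists. The 263 genes with the same kind of symbol on other chromosomes were open at 41.8 to 75.7% in RKO and at 50.6 to 75.7% in LOVO, above the share of all genes in each of the 10 lists. In the merged untreated shControl lists, 98 chromosome 19 zinc finger genes were open in both lines, 59 only in RKO, 3 only in LOVO and 86 in neither. Over all genes, 1594 were open only in RKO and 920 only in LOVO in the same pair of lists. In the scored untreated shControl lists the zinc finger genes split into 49 only in RKO and 16 only in LOVO, while over all genes 584 were open only in RKO and 2228 only in LOVO. In shMETTL3 with olaparib, 57 were open only in RKO and 4 only in LOVO, against 773 and 1387 over all genes. The majority of one-line openings was in RKO for the family in all 3 of these pairs, and in LOVO for all genes in 2 of them. Other chromosome 19 genes had 120 only in RKO and 26 only in LOVO in the merged pair. They had 35 and 142 in the scored untreated pair, and 62 and 57 in shMETTL3 with olaparib. Zinc finger genes elsewhere had 23 and 8, 13 and 22, and 13 and 13 in the same order. A majority in RKO was thus not confined to the family. Where both lines were open, the intervals mostly lay at the same place: those of the merged shControl lists overlapped at 96 of the 98 genes.

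Over all 10 lists, 47 of the 246 genes (19.1%) were open throughout, against 4024 of all genes (20.1%), and 63 (25.6%) were open in both lines but not in all lists, against 33.8% of all genes. A further 19 (7.72%) were open in all 5 RKO lists and in no LOVO list. Over all genes 63 (0.314%) had that state, so that the family held 19 of the 63. Of the other chromosome 19 genes 2 had it, and of the zinc finger genes on other chromosomes 3. The reverse state, open in all 5 LOVO lists and in no RKO list, was held by 2 of the family (0.813%) and by 263 of all genes (1.31%). Another 37 (15.04%) were open in some RKO lists and no LOVO list, against 3.65% of all genes, and 1, ZNF426, in 4 LOVO lists and no RKO list. No list had an interval at the ends of the remaining 77 (31.3%), against 35.4% of all genes.

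**Figure D2:**
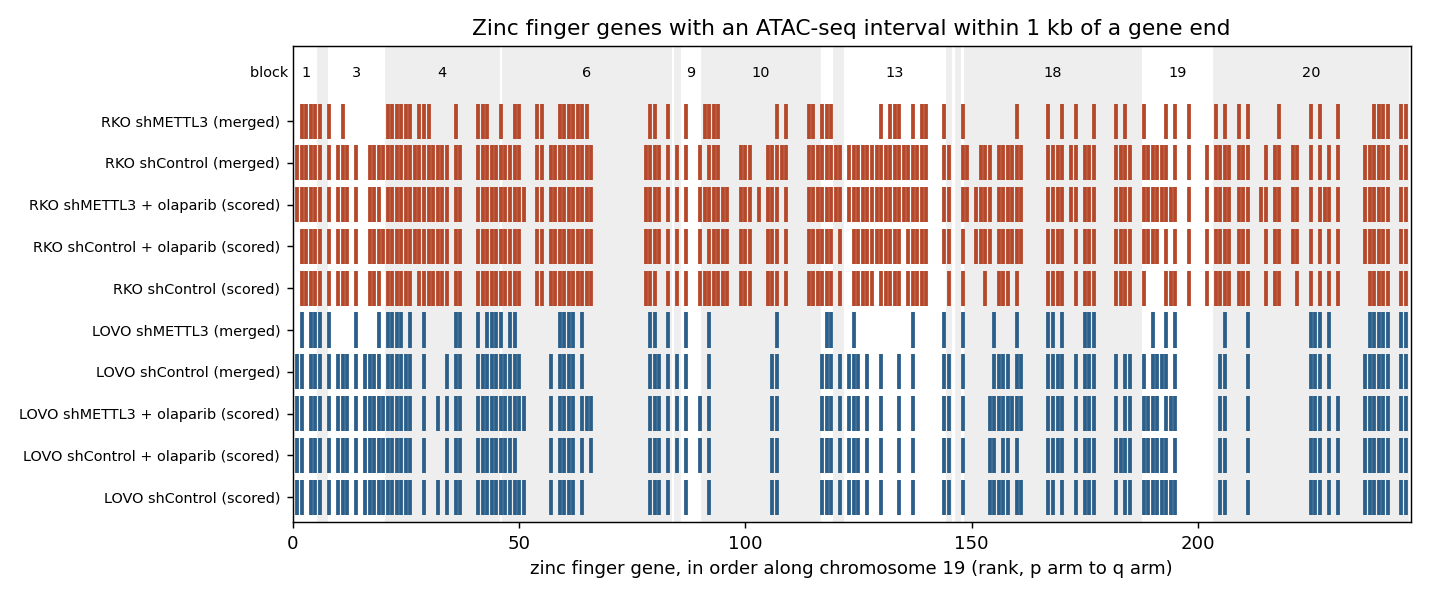
Each row is 1 list and each mark 1 of the 246 zinc finger genes, in order along chromosome 19 (rank, p arm to q arm), drawn where the list has an interval within 1 kb of a gene end. The RKO rows are denser than the LOVO rows, and the untreated shMETTL3 rows, with 81 genes in RKO and 63 in LOVO, are the sparsest of their line.

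The 19 genes open in every RKO list and in no LOVO list were, along the chromosome, ZNF556, ZNF69, ZNF763, ZNF486, ZNF737, ZNF738, ZNF566, ZNF260, ZNF527, ZNF571, ZNF607, ZNF223, ZNF284, ZNF233 and ZNF235, then ZNF583, ZNF264, ZNF547 and ZNF416. Since they were picked as present in every RKO list, the shortest included, the size of their RKO intervals is given as a description. The widest interval at each gene had a median width of 328 bp (162 to 494) in untreated shMETTL3 and of 807 bp (480 to 1322) in the merged untreated shControl list, and of 252 and 818 bp at the 47 genes open in all 10 lists. Ranked by score among all intervals of their list, they had median percentiles of 88.2 in shMETTL3 with olaparib, 83.1 in shControl with olaparib and 86.7 in untreated shControl, against 87.6, 87.7 and 81.8 at the genes open in all 10.

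ZNF260, read from the minus strand, shows the size of the difference between the lines. In RKO its interval was 162 bp wide in untreated shMETTL3, 1062 bp in merged untreated shControl (chr19:36528061-36529122), 1277 bp in shMETTL3 with olaparib, 1283 bp in shControl with olaparib and 982 bp in scored untreated shControl. No LOVO list had an interval within 295 kb of its ends. For ZNF486 the RKO widths in the same order were 389, 640, 592, 455 and 255 bp, and for its near-copy ZNF737 263, 887, 884, 912 and 594 bp. The nearest LOVO intervals to this pair lay 266 and 210.3 kb away. ZNF284 had RKO intervals of 287, 918, 633, 573 and 406 bp, with score percentiles of 94.1, 97.5 and 86.7 in the 3 scored lists. A LOVO interval lay 4.44 kb from its ends, the nearest for any of the 19 genes. The median distance over the 19 was 73.6 kb, and the largest 295 kb, at ZNF260, so that an interval lying just outside the 1 kb window did not set these states. A RefSeq start was available for 14 of the 19, and none of the 14 had a LOVO interval at that start.

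The pair with the reverse state was ZNF614 and ZNF586. ZNF586 had LOVO intervals of 375 bp in untreated shMETTL3, 612 bp in merged untreated shControl (chr19:57769516-57770127), 391 bp in shMETTL3 with olaparib, 450 bp in shControl with olaparib and 368 bp in scored untreated shControl. ZNF614 had 683, 727, 534, 449 and 361 bp in the same lists, and its merged shControl interval spanned chr19:52028138-52028864. Both stood well inside their lists, with score percentiles of 82.1 to 93.8 for ZNF586 and of 61.6 to 89.1 for ZNF614.

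Among the 47 genes open in all 10 lists, the widest in the merged shControl lists (total width, mean of both lines) were ZNF324 at 2092 bp, ZNF700 at 1510 bp, ZNF787 at 1343 bp, ZNF473 at 1247.5 bp, ZNF160 at 1195.5 bp and ZNF446 at 1188.5 bp. ZNF473 encodes a protein of U7 snRNP-dependent histone mRNA processing rather than a known silencer of repeats. ZNF91, known in primates for silencing SVA elements and named here for that role and not by the naming rule, was open in all 10 lists too. Its intervals were 233 bp in untreated shMETTL3, 612 bp in merged untreated shControl and 334 to 524 bp in the scored lists of RKO, and 539, 639 and 274 to 298 bp in LOVO. By score, 86 genes had an interval in all 6 scored lists. Of these ZNF555 ranked highest, at a mean percentile of 98.4 within its lists, followed by ZNF443 (98.1), ZNF714 (97.4), ZNF564 (96.5) and ZNF584 (96.4), and ZNF628 (39.4), ZNF317 (37.4) and ZNF559 (31.4) ranked lowest. The 5 highest were open in all 10 lists, and the 3 lowest in both lines but not in all lists.

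Along the chromosome the family formed 20 blocks where a gap of over 500 kb between neighbouring members began a new block. The 11 blocks with at least 3 members held 235 of the 246 genes and 90 interspersed protein-coding genes that are not members. In these 11 blocks the merged untreated shControl lists had 150 members open in RKO and 95 in LOVO, and 30 of the 90 interspersed genes open in RKO and 26 in LOVO. The difference between the lines was thus larger among the zinc finger genes than among the genes between them. It was not even across blocks. In the block from ZNF565 to ZNF573 (chr19:36182060-37779586) 14 of 26 members were open in RKO and 3 in LOVO, and in that from ZNF575 to ZNF180 (chr19:43530835-44500522) 19 of 23 and 8 of 23. Of the 10 other genes that lie among the members of the block from ZNF575, 6 were open in each line. Of the 4 in the block from ZNF565, 2 were open in RKO, and none was open in any LOVO list. In that block the genes between the members thus differed between the lines in the same direction as the members. In the block from ZNF101 to ZNF254 the counts were 21 of 37 in RKO and 14 of 37 in LOVO, in that from ZNF653 to ZNF791 21 and 15 of 25, in that from ZNF175 to ZNF331 23 and 17 of 39, and in that from ZNF264 to ZNF446 24 and 15 of 43. The lines were level, at 9 of 13, from ZNF414 to ZNF846, and at 3 of 3 from ZNF546 to ZNF780A. In the scored untreated shControl lists LOVO had more in the first of these, at 8 in RKO and 10 in LOVO, and in the block from ZNF628 to ZNF835, at 6 and 8, and the lines were level at 17 from ZNF175 to ZNF331 and at 4 from ZNF554 to ZNF77. The blocks from ZNF565 and from ZNF575 had 16 and 15 in RKO and 3 and 8 in LOVO in those lists. The smaller blocks had 5 and 4 of 5 (ZNF554 to ZNF77), 2 and 1 of 5 (ZNF302 to ZNF792) and 9 and 6 of 16 (ZNF628 to ZNF835).

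**Figure D3:**
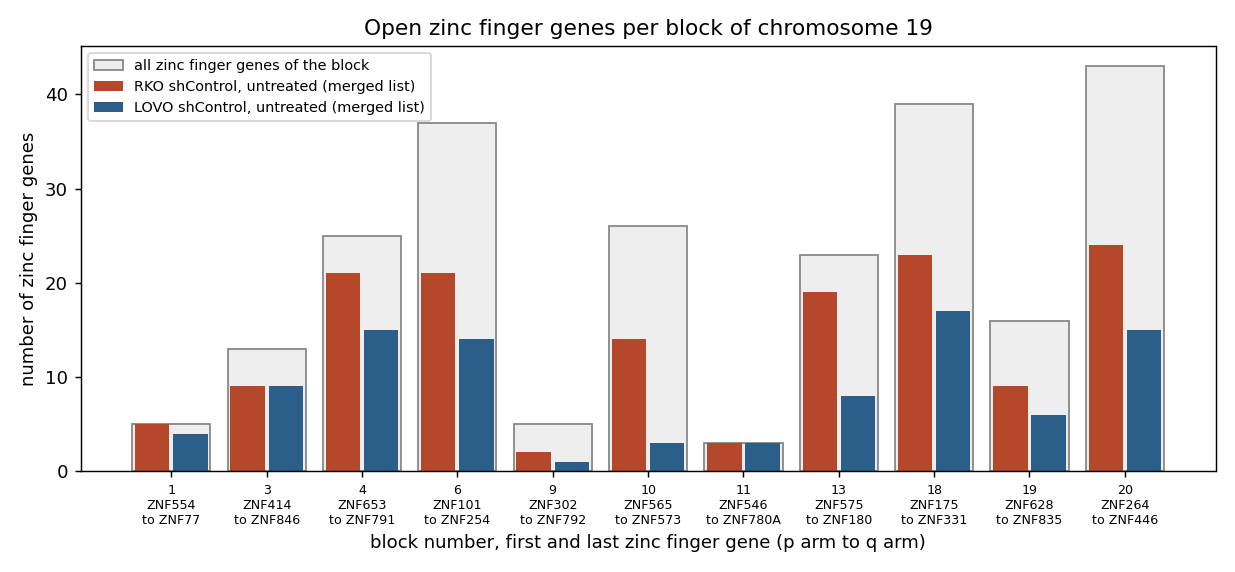
Number of zinc finger genes with an interval at a gene end in the merged untreated shControl lists, for RKO and LOVO, in each of the 11 blocks with at least 3 such genes, with all zinc finger genes of the block as the grey bar behind; the x axis gives the block number and its first and last gene. The RKO bar is the higher one in 9 blocks and level with LOVO in the blocks from ZNF414 and from ZNF546, and the widest gap stands at the blocks from ZNF565 and from ZNF575.

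The block from ZNF565 to ZNF573 held 2 genes open in all 10 lists, ZNF146 and ZNF383. ZNF146 had widths of 250 to 1143 bp in RKO and of 879 to 1180 bp in LOVO, and ZNF383 of 439 to 1160 and of 551 to 852 bp. Around this pair, 5 genes of the block were open in every RKO list and in no LOVO list, 10 in some RKO lists and no LOVO list, 1 (ZNF585B) in both lines and 8 in no list. Within it lay the longest run of zinc finger genes without an interval in any LOVO list, 13 genes from ZNF566 to ZNF585A (chr19:36445119-37172695), of which 9 were open in at least 1 RKO list and 2 of these in all 5. The longest run without an interval in any RKO list was 11 genes, from ZNF43 to ZNF730 (chr19:21804946-23147221), and none of these was open in LOVO. The RKO gap was thus shared by both lines, and the LOVO gap was not. ZNF568, whose mouse counterpart silences a placental Igf2 promoter, lay in the LOVO gap and had an RKO interval only in shMETTL3 with olaparib (154 bp).

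The intervals sat at the starts of the genes, not at their 3′ ends. Over the 216 members with a RefSeq start, 37.5 to 72.2% had an interval within 1 kb of the start in the RKO lists and 31.5 to 54.6% in the LOVO lists. At the opposite end, 2 to 9 members per list had one (0.926 to 4.17%), against 3.72 to 17.6% of the other chromosome 19 genes with a start. Between 1 and 6 intervals per list served several member windows and cannot be given to 1 gene. The median centre of the start intervals lay at offsets from -52.75 to 55.75 bp relative to the start, depending on the list. Inside the gene bodies of these 216 members, away from the end windows (5.97 Mb), RKO had 10 intervals in untreated shMETTL3, 39 in merged untreated shControl and 32 to 60 in the scored lists, and LOVO 3, 9 and 8 to 23 in the same lists. In the merged untreated shControl lists that is 6.54 per Mb in RKO and 1.51 per Mb in LOVO, against 20.9 and 12.5 per Mb in other chromosome 19 genes and 6.85 and 9.55 per Mb over all genes. In the other 4 RKO lists the members lay above all genes, at 1.68 against 1.02 per Mb in untreated shMETTL3, 10.1 against 8.93 in shMETTL3 with olaparib, 6.87 against 6.05 in shControl with olaparib and 5.36 against 4.73 in scored untreated shControl. Other chromosome 19 genes lay above the members there, at 2.89, 22.8, 17.7 and 13.4 per Mb in the same order. By share of genes with a body interval, the members lay below all genes in these 4 lists. The shares were 3.70, 20.4, 15.7 and 13.4%, against 6.16, 33.4, 26.2 and 22.0%. In the LOVO lists the members lay below all genes throughout, at 0.503 to 3.85 against 4.06 to 15.2 per Mb. Bodies and starts thus both had more intervals in RKO than in LOVO within the family, whereas over all genes the bodies had more in LOVO. Other chromosome 19 genes were mixed. Their bodies had more in RKO in merged untreated shControl (398 against 238) and in shControl with olaparib (336 against 289). They had fewer in RKO in untreated shMETTL3 (55 against 116), shMETTL3 with olaparib (434 against 448) and scored untreated shControl (254 against 409). Only the windows of the gene itself were left out of its body. An interval at the start of another gene inside the body was therefore counted, such as that of ZNF763 inside ZNF69. The body counts are thus not separate from the starts.

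Where members were open, their intervals ranked high. In RKO the median score percentile of the intervals at member ends was 67.4 in shMETTL3 with olaparib, 69.0 in shControl with olaparib and 68.0 in untreated shControl, against 48.4, 46.7 and 47.0 for all gene-end intervals of the same lists. In LOVO it was 67.3, 58.9 and 66.8, against 58.5, 58.0 and 58.1. The gap to other gene ends was wider in RKO in all 3 groups.

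With the hairpin against METTL3, untreated, the family lost intervals in both lines and gained almost none. In RKO 77 of the 157 members open in merged untreated shControl had no interval in shMETTL3 (49.0%), against 54.1% of all genes. In LOVO 38 of 101 had none (37.6%), against 31.2% of all genes. The members thus lay below the background in RKO and above it in LOVO, near it in both. The shMETTL3 lists were also the shortest of each line (6916 against 27978 intervals in RKO, 16417 against 33474 in LOVO). Only ZNF565 was open in shMETTL3 and not in shControl in RKO (1 of 89; all genes 0.321%), at 141 bp, and no member was in LOVO (0 of 145; all genes 0.813%). Taking 3 counts as the limit that a count of 0 allows, a rule used for every 0 here in place of the binomial interval, this share may be up to 2.07%. With both lists of a pair reduced to an equal number of intervals, losses numbered 32 members and gains 28 in RKO, while in LOVO losses numbered 28 and gains 3. The excess of losses over gains among the members was thus nearly removed in RKO and stayed in LOVO. The same cut was not counted over all genes, so these counts do not show whether this is particular to the members. The part that list length plays in the losses was not otherwise tested. Between the merged and the scored untreated shControl list, which differ in form, 22 of 157 members in RKO (14.01%; all genes 14.4%) and 2 of 101 in LOVO (1.98%; all genes 3.09%) were open in the merged list only.

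Members that lost their interval had narrower control intervals than those that kept it. In RKO the median control width was 686 bp (168 to 1448) at the 77 lost and 810.5 bp (475 to 1444) at the 80 kept, and in LOVO 730 bp (243 to 1623) at the 38 lost and 937 bp (513 to 1727) at the 63 kept, so that the ranges overlapped in both lines. Kept intervals were narrower in shMETTL3 at every one of these members. The median width was 278 bp in shMETTL3, against 810.5 bp in shControl, in RKO (median ratio 0.335) and 601 against 937 bp in LOVO (median ratio 0.703), and over all genes the median ratios were 0.320 and 0.684. The narrowing at the family was therefore of the size seen at gene ends in general.

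**Figure D4:**
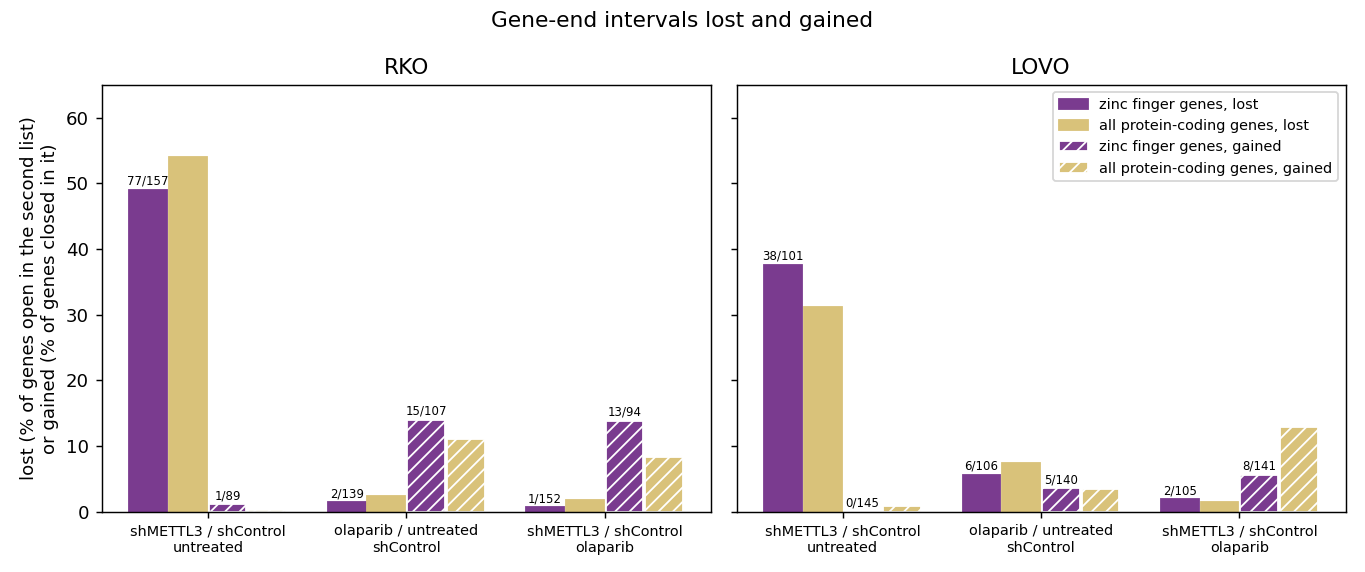
Percent of genes whose gene-end interval was lost (of the genes open in the second list named) or gained (of those not open in it) in each comparison, for the zinc finger genes, with their counts above the bars, and for all protein-coding genes. Losses with shMETTL3, untreated, are the tallest bars in both lines, at 49.0% of the open members in RKO and 37.6% in LOVO, beside 54.1 and 31.2% of all genes.

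Of the 98 members open in both merged shControl lists, 26 (26.5%) were lost with shMETTL3 in both lines, against 20.7% of all genes and 27.7% of other chromosome 19 genes. Along the chromosome the first 15 were ZNF554, ZNF317, ZNF559, ZNF121, ZNF561, ZNF20, ZNF101, ZNF66, ZNF681, ZNF507, ZNF585B, ZNF526, ZNF576, ZNF283 and ZNF45. ZNF507 had a merged shControl interval of 1061 bp in RKO and 673 bp in LOVO, none in either untreated shMETTL3 list, and 421 bp in RKO and 395 bp in LOVO in shMETTL3 with olaparib. The scored untreated shControl list of LOVO also lacked an interval at ZNF507. ZNF554 had 356 bp in RKO and 849 bp in LOVO in merged shControl, and ZNF317 382 and 575 bp. In RKO, ZNF554 had no interval in scored untreated shControl or in shControl with olaparib. ZNF274, whose protein binds the 3′ ends of zinc finger genes and recruits SETDB1 there, was also among the 26. Its merged shControl interval was 968 bp wide in LOVO (chr19:58182937-58183904) and 259 bp in RKO (chr19:58182066-58182324), and these do not overlap. The scored untreated shControl list of RKO lacked an interval at ZNF274. The share lost varied between blocks, on small counts and without a test, beside 54.1% of all genes in RKO and 31.2% in LOVO. From ZNF414 to ZNF846, 7 of 9 open members were lost in RKO and 6 of 9 in LOVO, and from ZNF175 to ZNF331 16 of 23 and 9 of 17. From ZNF653 to ZNF791, 8 of 21 and 3 of 15 were lost, and from ZNF101 to ZNF254 7 of 21 and 4 of 14. The block from ZNF264 to ZNF446 lost 10 of 24 and 2 of 15, that from ZNF575 to ZNF180 11 of 19 and 5 of 8, and that from ZNF565 to ZNF573 7 of 14 and 1 of 3.

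The corepressor genes that act with KRAB zinc finger proteins were set beside the family. Of 24 such genes, 11 were open in untreated shMETTL3 and 21 in merged untreated shControl in RKO, and 12 and 20 in LOVO. With shMETTL3, 10 of the 21 were lost in RKO (47.6%; all genes 54.1%) and 8 of the 20 in LOVO (40%; all genes 31.2%). In both lines 8 of the 20 open in both controls were lost, against 20.7% of all genes, so that the single-line shares stood near the background and the shared one above it, without a test. Among the 8 were SETDB1 and its partner ATF7IP, the HP1 gene CBX3, the deacetylase gene HDAC2, the maintenance DNA methyltransferase gene DNMT1, the chromatin remodeller gene ATRX and the H3K9 methyltransferase gene EHMT1. TRIM28 itself was open in all 10 lists, as were the HP1 genes CBX1 and CBX5, HDAC1, the HUSH complex genes MPHOSPH8 and TASOR, and MORC2, DAXX and KDM4A. UHRF1 was open in none. With olaparib in shControl, 1 of the 16 open in scored untreated shControl was lost in RKO (CBX3; all genes 2.36%). Of the rest of the 24, 5 were gained there (all genes 11.1%). The merged untreated list had 21 open and the olaparib list 20, so these counts depend on the untreated list used. In LOVO none was lost or gained, with 22 open (all genes 7.47% lost and 3.49% gained).

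Between the scored lists, olaparib in shControl cells changed few members, and more were gained than lost in RKO only. In RKO 2 of 139 open members were lost with olaparib (all genes 2.36%), ZNF565 and ZNF580, and 15 of 107 were gained (14.02%; all genes 11.1%). ZNF565 had an interval at its RefSeq start in all 10 lists, and by start alone 1 member was lost and 10 were gained. In LOVO 6 of 106 were lost (5.66%; all genes 7.47%) and 5 of 140 gained (3.57%; all genes 3.49%). These shares stood near the background of all genes. No member was gained in both lines (0 of 91, which allows a share of up to 3.30%; all genes 0.665%), and ZNF580 was the only one lost in both (1 of 90; all genes 0.346%). The counts depended on which untreated shControl list was used: with the merged list 8 members were lost and 3 gained in RKO, and 3 were lost and 7 gained in LOVO. With that list more were gained than lost in LOVO only. In lists of equal number 6 were lost and 11 gained in RKO, and 2 were lost and 10 gained in LOVO, again without a figure over all genes. The RKO list with olaparib held 25855 intervals, against 21210 in scored and 27978 in merged untreated shControl. At the 137 members open in both scored RKO lists the median width was 592 bp with olaparib and 484 bp untreated (median ratio 1.18; all genes 1.21), and at the 100 in LOVO 452 and 435 bp (1.02; all genes 0.995).

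Under olaparib, shMETTL3 cells had more open members than shControl cells in both lines, the opposite order to the untreated pair. In RKO 13 of 94 members were gained (13.8%; all genes 8.38%) and 1 of 152 was lost, ZNF846 (all genes 1.79%). In LOVO 8 of 141 were gained (5.67%; all genes 12.9%) and 2 of 105 lost, ZNF525 and ZNF784 (all genes 1.50%). Gains at the family were thus above the background in RKO and below it in LOVO. The shMETTL3 lists were the longer ones here, with 35455 against 25855 intervals in RKO and 51462 against 32192 in LOVO. Counted at the RefSeq start alone, RKO had 8 gained and 0 lost. In lists of equal number RKO had 7 gained and 4 lost, and LOVO 5 gained and 17 lost, so that in LOVO the order turned round. These equal-number counts have no figure over all genes beside them. At members open in both groups the median width was 536 bp in shMETTL3 and 583 bp in shControl in RKO (median ratio 0.981), and 467 and 450 bp in LOVO (1.05). No member was lost in both lines (0 of 99, which allows a share of up to 3.03%; all genes 0.0957%).

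The members gained in both lines were ZNF93 and ZNF580 (2 of 88; all genes 1.97%). ZNF93, known for silencing older LINE1 families in primates, had an interval of 109 bp in RKO shMETTL3 with olaparib and none in the other 4 RKO lists. In LOVO it had 181 bp in shMETTL3 with olaparib and 158 bp in scored untreated shControl, and none in the other 3 lists. ZNF580 had 197 bp in RKO and 320 bp in LOVO in shMETTL3 with olaparib and 196 and 170 bp in scored untreated shControl, and none in shControl with olaparib or in a merged list. Each of these intervals was narrower than the median interval at members in its list. In LOVO the scored ZNF93 interval stood at percentile 12.7 in shMETTL3 with olaparib and at 4.33 in untreated shControl, and in RKO at 11.9. The list of shControl with olaparib enters both comparisons under the drug. The members ZNF878, ZNF253, ZNF93, ZNF432, ZNF480 and ZNF580 counted as lost with olaparib and as gained with shMETTL3 in LOVO because that 1 list lacked them.

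The promoters of the family had a CpG content near that of all promoters, and its median differed little by state. Over the 216 member promoters the median observed over expected ratio was 0.765 (0.176 to 1.21), against 0.763 over all promoters. The median observed over expected CpG ratio in the 300 bases was 0.728 at the 44 members open in all 10 lists, 0.798 at 57 open in both lines but not in all lists, 0.746 at 14 open only in RKO in all 5 lists, 0.801 at 32 open in some RKO lists, and 0.762 at 66 open in none. Over all genes the ratio was 0.854 for those open in all 10 lists, 0.853, 0.720 and 0.641 for the next 3 states, and 0.360 for the 5247 open in none. For zinc finger genes on other chromosomes it was 0.807 at the 78 open in all 10 lists and 0.634 at the 32 open in none. Members open in no list had a median of 20 CpG per promoter, and all genes open in no list 7. Part of these members had an interval elsewhere: 15 of the 66 had one within 1 kb of the RefSeq start in some list, although not at a gene end, and ZNF558, ZNF563, ZNF442, ZNF799 and ZNF444 had one there in all 10. The other 51 had none at the start in any list. The first and last genes without a gene-end interval along the chromosome were ZNF358 and ZNF132. Among the single genes outside the clusters, ZNF536, known as a regulator of neuronal differentiation, and ZNF541, known from male germ cells, were open in none either.

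**Figure D5:**
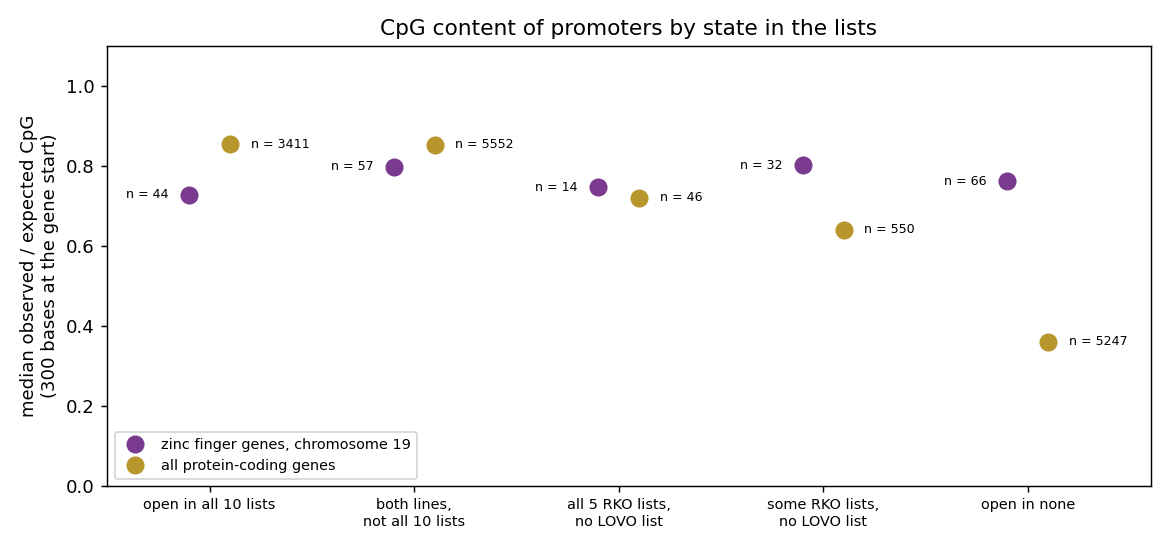
Median observed over expected CpG ratio in the 300 promoter bases, by state in the lists, for the zinc finger genes and for all protein-coding genes; n is the number of promoters. The zinc finger medians lie between 0.728 and 0.801 in all 5 states, and those of all genes fall to 0.360 for genes open in no list.

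The letters marked in the printed promoters were frequent in the family. CCGGAAG, on either strand, occurred in 98 of the 216 member promoters (45.4%), in 126 of 969 promoters of other chromosome 19 genes (13.0%), in 73 of 214 of the zinc finger genes elsewhere (34.1%) and in 14.2% of all 15841 promoters. It lay close to the start, at a median offset of -14 bp from it (quartiles -20.5 and 7.25 bp), and within 100 bp of it in 90 of the 98. By state it was found at 22 of 44 members open in all 10 lists (50%), at 6 of 14 open only in RKO in all 5 lists (42.9%) and at 33 of 66 without a gene-end interval in any list (50%). Over all genes it was found in 23.6% of promoters open in all 10 lists and in 4.50% of those open in none. Sorted instead by intervals at the RefSeq start itself, it was found at 24 of 50 members with one in all 10 lists (48%) and at 29 of 54 with none in any list (53.7%), and over all genes at 24.1 and 3.69%. A missing interval does not show a closed promoter, so these are groups by list and not by chromatin state. A match is a description of the letters and not of binding. CCAAT was found in 53.7% of member promoters, against 36.4% of all promoters, GGGCGG in 67.6 against 58.5%, CGCG in 73.6 against 65.2%, TATAAA in 1.85 against 9.63%, CACGTG in 4.17 against 8.88%, and GATGGCGG in 2.78 against 3.38%. Of longer motifs, that of NRF1 was found in 2.31 against 1.75%, that of ZNF143 in 3.70 against 1.59% and that of BANP in 0.926 against 0.669%. Both strands were searched, and of these motifs that of BANP contains another, CGCG. Member promoters were otherwise mostly distinct: 179 of the 216 shared no run of 36 bases with another promoter that does not overlap them, and none shared over 50% of such runs.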

How the data were processed

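The authors deposited 10 BED lists of ATAC-seq intervals, 5 per line and each for a group, per the labels on hg38. The submitters' processing notes name DiffBind 3.0.15, MACS2 2.2.7.1, Bowtie2 2.4.2 and Trim Galore 0.6.6 but do not say what each did. Any shift of reads for the transposase, any filter and the way samples were combined are not given in the sources used. In 6 lists the authors deposited a score per interval, whose MACS2 column is not stated. Scores were used only to rank intervals within a list. The other 4 lists hold positions only. The labels do not tie the second batch to either untreated shControl list, so both stand as 1 group. Depth is unknown.

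Genes, starts and promoters came from tables of RefSeq on GRCh38.p14, and a start was available for 216 of the 246 members. A gene was called open with at least 1 bp of an interval within 1000 bp of either gene end. Lists of the same form were compared, as lost (open only in the shControl or untreated list) and gained (the reverse). Each group has 1 list of a form, so no test, p-value or SD was computed, and shares carry 95% exact binomial intervals, or, for a count of 0, a limit of 3 counts. Blocks were separated by gaps of over 500 kb. Motifs were searched on both strands. Python 3.11.15, pandas 2.3.3, numpy 2.4.6, scipy 1.17.1 and matplotlib 3.10.9 were used. On simulated intervals all 200 planted gene-end intervals were found among 20033 genes.

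The members, gene lists and the naming rule were chosen with earlier results of these data known. The rule names members that changed alike in both lines (first 15 per direction), members open in all lists of 1 line only (first 15), the 6 widest of those open in all lists, the 5 highest and 3 lowest by score percentile, the first and last open in none, block ends, corepressor genes changed in both lines, and ZNF274. Genes named beyond it were chosen after their values were seen. Not every gene covered by the rule is reported here. Zinc fingers and KRAB domains were not counted, since no protein sequences were used here. Alternatives were windows of 500 bp and 2 kb, at least 100 bp of overlap, the gene start alone, lists of equal number, the other untreated shControl list, and gaps of 250 kb and 1 Mb.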

Additional observations from a re-analysis of the deposited data

Results flagged for a closer look

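Olaparib in shControl cells moved the number of open members in opposite directions in the lines: a net 13 more in RKO (152 with olaparib, 139 untreated) and a net change of -1 in LOVO (105 with olaparib, 106 untreated). All protein-coding genes moved in the same directions, at 10483 with olaparib and 9540 untreated in RKO and at 10657 and 11184 in LOVO. The opposite directions were thus not particular to the members. The difference between the lines was not tested, since each group has 1 scored list. Set against the merged untreated list, the counts were 152 with olaparib and 157 untreated in RKO and 105 and 101 in LOVO, so that both directions turned. They turned over all genes too, with 10991 open in the merged untreated list in RKO and 10317 in LOVO.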

How the results depend on the processing

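Of 126 alternative values for 27 results, 107 stayed within 1.5 times the reported count and 19 did not. None of these 19 concerned the number of members open in a list, in all 10 lists, in none or in 1 line only. Counts at the gene start alone are out of 216 members, and the reported counts are out of 246. Windows of 2 kb, at least 100 bp of overlap, and gaps of 250 kb or 1 Mb moved no count beyond that limit.

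With an equal number of intervals in both lists, the widest or highest scored being kept, untreated shMETTL3 had 32 members lost and 28 gained in RKO, and 28 lost and 3 gained in LOVO. Olaparib in shControl then had 6 lost and 11 gained in RKO, and 2 lost and 10 gained in LOVO. Under olaparib, shMETTL3 had 4 lost and 7 gained in RKO, and 17 lost and 5 gained in LOVO. The equal-number counts were made for members only and not over all genes. With windows of 500 bp, untreated shMETTL3 had 0 gained in RKO, and under olaparib 2 were lost there. At the gene start alone, untreated shMETTL3 had 0 gained in RKO, olaparib in shControl 1 lost in RKO, and shMETTL3 under olaparib 0 lost and 8 gained in RKO. With the other untreated shControl list, olaparib had 8 lost and 3 gained in RKO and 3 lost and 7 gained in LOVO. The smaller number of intervals kept, of genes with a start, or of bases searched follows from how these alternatives are built; other causes were not tested.

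No paired analysis was possible because the deposited lists are for groups and not for samples. Without per-sample lists, the spread between samples is unknown, and the depth, also unknown, limits what a missing interval shows.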

Other observations

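Of 19 further chromosome 19 genes with other zinc finger symbols (ZSCAN, ZKSCAN, ZFP, ZIM, ZIK, ZBTB and PEG3), 2 were open in all 10 lists, and 1 was open in all 5 RKO lists and in no LOVO list. In the merged untreated lists 3 of the 6 open in shControl were lost with shMETTL3 in RKO, and 1 of 3 in LOVO.

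ZNF420 had no interval at either gene end in any list, but at its RefSeq start, which lies inside the annotated gene, all 5 RKO lists had one and no LOVO list did. ZNF565, open at a gene end in 3 RKO lists and in no LOVO list, had an interval at its RefSeq start in all 10 lists. Counted by RefSeq start alone, 17 members were open in all RKO lists and in no LOVO list, and 3 the other way round.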
